A study of Mus musculus with 32 samples.

Results

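Gene expression of 10 transcription factors that control adipocyte formation and lipid sensing was followed in brown adipose tissue: Pparg, Ppara, Ppard, Cebpa, Cebpb, Cebpd, Rxra, Rxrg, Nr1h3 and Klf15. They were taken by name, as all probes with 1 of these gene names that were in the deposited expression table, which gave 14 probes for the 10 genes among 37306 probes and 24523 gene names. RNA was measured on 32 Agilent 1-colour arrays in 4 groups of 8. Total ChREBP KO mice are Mlxipl-null and lack both isoforms of the glucose-responsive factor ChREBP, whereas ChREBPβ KO mice carry a CRISPR/Cas9 deletion of exon 1b, which only the β isoform uses. Each KO group was compared with WT littermates of its own line, called here the total-line WT and the ChREBPβ-line WT. The mice were male C57BL6/J per the study's methods, and all of them, controls included, went through a 24-hour fast followed by 18 hours of food together with drinking water that held 20% glucose. Both alleles are carried by the whole animal and not by brown adipocytes alone. The age of the mice is not given in the sources used here. The labels number 8 samples per group without saying that each is another animal, so p-values measure the spread between these samples.

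PPARγ, the product of Pparg, forms a heterodimer with a retinoid X receptor and together with C/EBPα drives the genes of the mature adipocyte. C/EBPβ and C/EBPδ act earlier in adipocyte formation, upstream of that pair. PPARα and PPARδ sense fatty acids and drive their oxidation, LXRα, encoded by Nr1h3, senses oxysterols, and KLF15 is a Krüppel-like factor responsive to glucocorticoids and fasting. Brown adipose tissue holds all of these factors and is rich in PPARα compared with white fat.

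Several features of the whole data set bear on these genes. Mlxipl, the deleted gene, had a brightest probe that fell by 2.48 on the log2 scale in total ChREBP KO (adjusted p = 2.06e-24 in limma) and by 1.5 in the knockout of the β isoform (adjusted p = 7.47e-17), while 1 of its other probes was not called in either (adjusted p = 0.0679 and 0.625). The third Mlxipl probe was called in both, at -0.77 in total ChREBP KO (adjusted p = 2.95e-07 in limma) and at -1.14 in ChREBPβ KO (adjusted p = 2.46e-08). Its fall was thus the larger in ChREBPβ KO, but the difference between the effects was not called (adjusted p = 0.0654). Where these probes lie relative to the deleted parts was not annotated here. Of the 12 brown adipose markers, the mean lay between 13.01 and 13.93 on all 32 arrays, and the brightest, Ucp1, averaged 18.4 to 18.5 in every group. In total ChREBP KO 6 of these 12 were higher and 2 lower, with Dio2 at 2.19 and Elovl3 at -3.16, and in ChREBPβ KO 1 was higher, Ebf2. The mean of 12 skeletal muscle markers ran from 12.81 to 16.17 on the 16 arrays of the total line and from 5.67 to 11.96 on the 16 arrays of the ChREBPβ line, and Tnnc2 and Myh4 were the brightest of them in the WT and KO groups of the total line. None of the 12 was called in either KO comparison. All 8 macrophage markers were lower in total ChREBP KO than in its WT littermates, with means of 9.05 to 9.43 against 9.63 to 10.48, the brightest being Lyz2, and 5 of 6 stromal progenitor markers were lower and 1 higher. Of all gene names, 44.1% were called in total ChREBP KO and 2.7% in ChREBPβ KO. In bulk tissue, fewer cells of a type and less RNA per cell cannot be told apart. The part of either cell type in the results below was not tested beyond the values given with them.

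Promoter windows were read for 9 of the 10 genes from RefSeq (GRCm38.p6), as the 250 bases before and 50 bases after each annotated start. They are shown for Klf15, Ppara and Nr1h3, the 3 genes for which the effects of the 2 knockouts differed. Capitals mark, on either strand, the letters CACGTG of an E-box, the letters CCAAT, the nuclear receptor letters AGGTCA and the letters CACCC, the kind of site that Krüppel-like factors bind. The Klf15 window is chr6:90462326-90462625 on the plus strand, that of Ppara chr15:85735526-85735825 on the plus strand, and that of Nr1h3, at the more upstream of its starts, chr2:91195067-91195366 on the minus strand.
Klf15: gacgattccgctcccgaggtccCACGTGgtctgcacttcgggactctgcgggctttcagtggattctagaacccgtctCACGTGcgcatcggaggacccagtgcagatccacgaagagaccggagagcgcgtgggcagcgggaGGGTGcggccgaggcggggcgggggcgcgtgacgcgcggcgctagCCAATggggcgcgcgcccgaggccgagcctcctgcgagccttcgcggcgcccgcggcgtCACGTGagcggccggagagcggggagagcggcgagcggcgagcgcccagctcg
Ppara: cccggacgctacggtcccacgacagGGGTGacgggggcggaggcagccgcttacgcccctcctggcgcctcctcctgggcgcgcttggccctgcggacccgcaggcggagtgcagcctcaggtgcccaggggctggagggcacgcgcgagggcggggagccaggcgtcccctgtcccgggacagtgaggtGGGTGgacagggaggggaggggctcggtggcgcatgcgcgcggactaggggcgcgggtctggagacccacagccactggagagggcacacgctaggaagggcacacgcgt
Nr1h3: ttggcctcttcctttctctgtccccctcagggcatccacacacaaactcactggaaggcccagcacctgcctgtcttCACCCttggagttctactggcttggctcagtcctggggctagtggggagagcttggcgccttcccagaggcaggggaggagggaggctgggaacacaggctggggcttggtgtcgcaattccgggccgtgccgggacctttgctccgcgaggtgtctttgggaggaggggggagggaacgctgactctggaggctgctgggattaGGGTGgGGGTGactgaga
The Klf15 window held CACGTG 3 times, beginning at -228, -172 and -3 from the start, and no other of the 14 windows of these genes held it. Among all 32851 windows of this length, 7.15% held CACGTG at least once and 0.0883% at least 3 times, the latter share being counted after the Klf15 window had been seen. CCAAT was present in 5 of the 14 windows and in 37.4% of all windows, AGGTCA in 4 of 14 and in 16.3%, and CACCC in 11 of 14 and in 57.5%. AGGTCA lay in a window of Pparg, Rxra and Rxrg. The C/EBP letters TTGCGCAA and the D-box letters TTATGTAA and TTATGCAA were in 0 of the 14 windows and in 0.183%, 0.938% and 0.743% of all windows. No window was found for Cebpd. A match says only that these letters are in the window.

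In total ChREBP KO, 7 of the 10 genes were called by the brightest probe of each gene at a Benjamini-Hochberg adjusted p under 0.05 in limma, all 7 of them higher than in WT littermates. Of all 24523 gene names, 44.1% were called in that comparison, with 23% called higher and 21.1% called lower. The ranges of the 8 KO and 8 WT arrays did not overlap for 4 of the 10 genes, Ppara, Klf15, Cebpa and Nr1h3, against 16.6% of all gene names. In ChREBPβ KO 2 of the 10 were called, Ppard and Rxrg, both higher, where 2.7% of all gene names were called and 1.37% were called higher, and no range was separate, against 0.432% of all gene names. The effects of the 2 knockouts differed for 3 of the 10, Ppara, Nr1h3 and Klf15, against 25.2% of all gene names. For all 3 the ChREBPβ effect was the lower, which held for 13.1% of all gene names. Each knockout was measured in its own line, and the 2 WT groups differed for 38.9% of all gene names. Deleted isoform and line therefore cannot be told apart in this difference between effects. The median log2 fold change of the 10 genes was 0.28 in total ChREBP KO and 0.11 in ChREBPβ KO, beside 0.01 and -0.003 over all gene names. The 10 genes were chosen with earlier results of these data known, so these counts are a description and no test of the set.

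**Figure D1:**
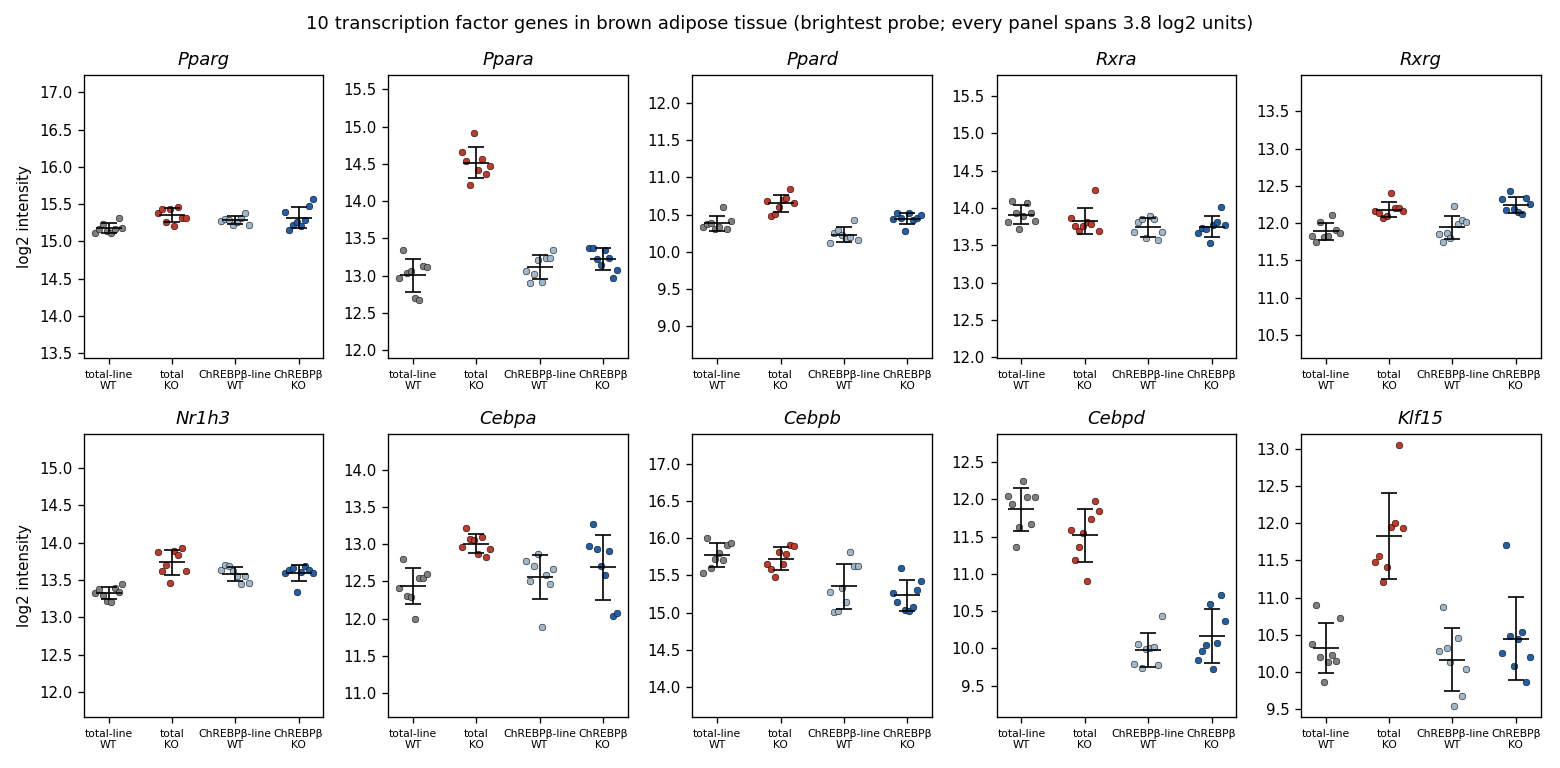
Log2 intensity of the brightest probe of each of the 10 genes in 4 groups of 8 arrays; each point is 1 array, horizontal lines are group means and bars are 1 SD. Every panel spans the same number of log2 units around its own midpoint, so distances can be compared between panels but levels cannot. All 8 total ChREBP KO points of Ppara, Klf15, Cebpa and Nr1h3 lie above all 8 points of their WT littermates, and all 16 points of Cebpd in the total line lie above the 16 of the ChREBPβ line.

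**Figure D2:**
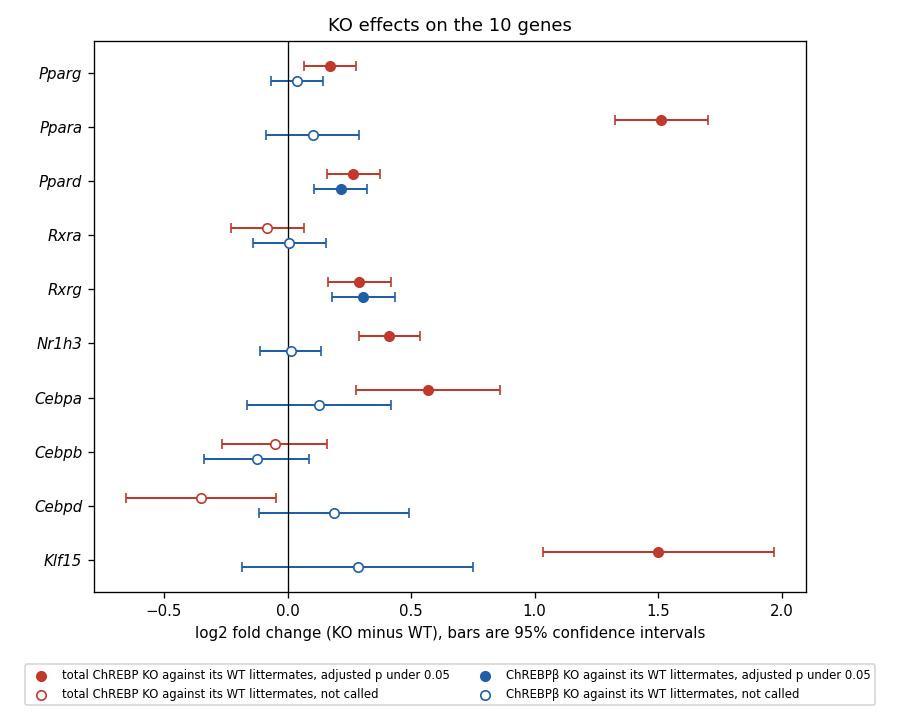
Log2 fold change of each gene in total ChREBP KO (red) and ChREBPβ KO (blue) against the WT littermates of the same line, with 95% confidence intervals; filled points have a limma adjusted p under 0.05 over all probes. Ppara and Klf15 stand near 1.5 in total ChREBP KO and at 0.10 and 0.28 in ChREBPβ KO, whereas the intervals of the 2 knockouts overlap over most of their length for Ppard and Rxrg.

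Among the PPAR genes, Ppara, the fatty acid sensor of oxidative tissues, had the largest fold change in total ChREBP KO. Its brighter probe, A_55_P2055854 (mm9 chr15:85632110-85632169, plus strand), had a log2 intensity of 12.68 at the lowest, 13.05 at the median and 13.34 at the highest in the total-line WT, and of 14.21, 14.50 and 14.91 in total ChREBP KO. Among WT mice of the ChREBPβ line it ran from 12.90 through 13.14 to 13.35, and in ChREBPβ KO from 12.97 through 13.23 to 13.37. Every total ChREBP KO array was thus brighter than all 24 others, while the other 3 groups overlapped. Ppara was 2.85-fold higher in total ChREBP KO (log2 fold change 1.51, SE 0.09, adjusted p = 8.83e-15) and differed by 0.10 in ChREBPβ KO (SE 0.09, 95% interval -0.09 to 0.29, adjusted p = 0.727). The ChREBPβ effect minus the total effect was -1.41 (SE 0.13, adjusted p = 6.33e-10). The other probe, A_55_P2071596 at chr15:85637193-85637252, gave 1.42 (SE 0.10, adjusted p = 8.47e-13), -0.01 (SE 0.10, adjusted p = 0.984) and -1.43 for the same comparisons. Within the 4 wash batches named in the labels, each with at least 1 array per group, the total KO effect on the brighter probe ran from 1.40 to 1.61. With the muscle and liver marker means of each array as covariates it was 1.52. Only 1.23% of all probes changed more in size in that comparison.

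Ppard encodes the PPAR that is expressed in most tissues, and it moved by a similar amount in the 2 knockouts. Its probe A_66_P124715 (chr17:28438298-28438357, plus strand) ran from 10.31 through 10.36 to 10.60 in the total-line WT, from 10.49 through 10.67 to 10.84 in total ChREBP KO, from 10.11 through 10.21 to 10.43 among WT mice of the ChREBPβ line and from 10.28 through 10.45 to 10.52 in ChREBPβ KO. KO and WT ranges overlapped in both lines, although all 8 KO arrays lay above the WT mean in each. The log2 fold change was 0.27 in total ChREBP KO (SE 0.05, adjusted p = 9.81e-05) and 0.22 in ChREBPβ KO (SE 0.05, adjusted p = 0.0178), and the difference between them was -0.05 (95% interval -0.20 to 0.10, adjusted p = 0.682). As folds these are 1.2 and 1.16. The ChREBPβ KO call did not hold with Agilent's processed signal (0.18, adjusted p = 0.0761) or with the slide as a fixed block (0.22, adjusted p = 0.243). Within wash batches, the effect on Ppard lay between 0.18 and 0.37 in total ChREBP KO and between 0.06 and 0.27 in ChREBPβ KO.

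Pparg, the central factor of adipocyte formation, changed little. Its brighter probe A_51_P106799 (chr6:115440213-115440272, plus strand) ran from 15.11 through 15.17 to 15.31 in the total-line WT and from 15.21 through 15.35 to 15.46 in total ChREBP KO, and from 15.22 through 15.28 to 15.38 in the ChREBPβ-line WT and from 15.16 through 15.27 to 15.56 in ChREBPβ KO. All pairs of groups overlapped. The total KO effect was 0.17 (1.13-fold, SE 0.05, adjusted p = 0.00676), smaller in size than that of 48.4% of all probes, and that of ChREBPβ KO was 0.04 (SE 0.05, 95% interval -0.07 to 0.14, adjusted p = 0.849). The total KO call was lost with 75th percentile scaling of the processed signal (0.09, adjusted p = 0.22) or of the median intensity (0.10, adjusted p = 0.175), with the slide as a fixed block (0.17, adjusted p = 0.0856) and in the mean of the Pparg probes (0.10, adjusted p = 0.274). A dimmer probe, A_55_P2745190 at chr6:115413557-115413616 averaged 7.22 in the total-line WT and 7.25 in total ChREBP KO and was not called in any comparison.

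The retinoid X receptors are the obligate partners of the PPARs and LXRs. Rxrg, the family member found in muscle and few other tissues, rose in both knockouts, as Ppard did. Its probe A_51_P513311 (chr1:169569624-169569683, plus strand) ran from 11.75 through 11.85 to 12.11 in the total-line WT, from 12.08 through 12.16 to 12.41 in total ChREBP KO, from 11.75 through 11.93 to 12.23 among WT mice of the ChREBPβ line and from 12.13 through 12.23 to 12.43 in ChREBPβ KO. The KO arrays were above the WT mean in 8 of 8 cases in each line, with ranges that overlapped at their ends. It was 1.22-fold higher in total ChREBP KO (log2 fold change 0.29, SE 0.06, adjusted p = 3.12e-04) and 1.24-fold higher in ChREBPβ KO (0.31, SE 0.06, adjusted p = 0.00416), and the effects differed by 0.02 (95% interval -0.16 to 0.20, adjusted p = 0.924). In ChREBPβ KO 4.77% of probes changed more in size. With the slide as a fixed block the ChREBPβ effect on Rxrg was 0.31 again, at an adjusted p of 0.179, and within wash batches the Rxrg effect ran from 0.19 to 0.61 in total ChREBP KO and from 0.05 to 0.50 in ChREBPβ KO. Rxrg is also expressed in muscle, whose 12 markers were not called in either KO comparison, and the part of muscle RNA in its values was not tested. Between the 2 WT groups Rxrg was at 0.05 (adjusted p = 0.545).

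Rxra did not pass the test in either knockout, although other scalings or blocks gave a call in total ChREBP KO. The probe A_55_P2931478 (chr2:27618345-27618404, plus strand) ran from 13.72 through 13.91 to 14.09 in the total-line WT, from 13.69 through 13.77 to 14.24 in total ChREBP KO, from 13.57 through 13.75 to 13.89 among WT mice of the ChREBPβ line and from 13.53 through 13.75 to 14.01 in ChREBPβ KO. Log2 differences were -0.08 (95% interval -0.23 to 0.07, adjusted p = 0.385) and 0.01 (-0.14 to 0.15, adjusted p = 0.986). With 75th percentile scaling the total KO difference was -0.18 with the processed signal (adjusted p = 0.0141) and -0.20 with the median intensity (adjusted p = 0.00974). The dimmer probe A_51_P307370 at chr2:27615316-27615375 was at -0.17 (adjusted p = 0.0654) and -0.13 (adjusted p = 0.486), and was called in total ChREBP KO with wash batch as a block (-0.18, adjusted p = 0.0287).

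Nr1h3 encodes LXRα, the oxysterol receptor. Its brighter probe A_66_P120249 (chr2:91024250-91024309, minus strand) ran from 13.21 through 13.33 to 13.45 in the total-line WT and from 13.46 through 13.77 to 13.92 in total ChREBP KO. It ran from 13.44 through 13.59 to 13.70 in the ChREBPβ-line WT and from 13.34 through 13.62 to 13.69 in ChREBPβ KO. The total-line WT group was the lowest of the 4 and the total KO group the highest, with both ChREBPβ-line groups between them and overlapping with both. The total KO effect was 0.41 (1.33-fold, SE 0.06, adjusted p = 1.43e-06), the ChREBPβ effect 0.01 (SE 0.06, 95% interval -0.11 to 0.14, adjusted p = 0.971), and the difference -0.40 (SE 0.09, adjusted p = 7.61e-04). The second probe, A_52_P546421 at chr2:91024435-91024494, gave 0.37 (adjusted p = 6.94e-06), 0.04 (adjusted p = 0.867) and -0.33 (adjusted p = 0.00446), with ranges that overlapped in the total line. The ChREBPβ-line WT was 0.25 above the total-line WT (SE 0.06, adjusted p = 0.00132), and the mean of the ChREBPβ KO group minus that of the total KO group was -0.15. LXRα is also made by macrophages, whose 8 markers were lower in total ChREBP KO. The part of macrophage RNA in the Nr1h3 values was not tested.

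Cebpa, the partner of PPARγ in the mature adipocyte, was higher in total ChREBP KO. Its probe A_52_P168567 (chr7:35906517-35906576, plus strand) ran from 11.9985 through 12.47 to 12.80 in the total-line WT and from 12.83 through 13.01 to 13.21 in total ChREBP KO, so that the ranges lay next to each other without overlap. The ChREBPβ line spread wider, from 11.89 through 12.63 to 12.86 in WT and from 12.04 through 12.81 to 13.27 in KO. The total KO effect was 0.57 (1.48-fold, SE 0.14, adjusted p = 0.00155) and lay between 0.33 and 0.82 within wash batches. The ChREBPβ effect was 0.13 (SE 0.14, 95% interval -0.16 to 0.42, adjusted p = 0.799). The difference between the effects, -0.44, was not called (SE 0.20, adjusted p = 0.114), and it was called without ChREBPβ KO replicate 2 (-0.53, adjusted p = 0.0453), without ChREBPβ-line WT replicate 5 (-0.54, adjusted p = 0.0342) and with array weights (-0.54, adjusted p = 0.0308).

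The early factors of the C/EBP family did not pass the test in either knockout. Cebpb (A_55_P2165869, chr2:167515828-167515887, plus strand) ran from 15.53 through 15.76 to 15.9985 in the total-line WT and from 15.47 through 15.72 to 15.91 in total ChREBP KO, a log2 difference of -0.05 (95% interval -0.26 to 0.16, adjusted p = 0.731). Cebpd (A_51_P444447, chr16:15888459-15888518, plus strand) ran from 11.37 through 11.98 to 12.24 in the total-line WT and from 10.90 through 11.57 to 11.98 in total ChREBP KO. The Cebpd difference was -0.35 (SE 0.15, 95% interval -0.65 to -0.05), with an adjusted p of 0.0576 that lay just over the threshold. It was called without total-line WT replicate 3, 4 or 7 (adjusted p = 0.0225, 0.046 and 0.0499), without total ChREBP KO replicate 6, 7 or 8 (0.0487, 0.0247 and 0.0381), with either 75th percentile scaling (-0.40 in both, adjusted p = 0.0339 and 0.0275) with wash batch as a block (-0.35, adjusted p = 0.0494) and with the replicate block (-0.35, adjusted p = 0.0445). Within single wash batches it ran from -1.19 to -0.06. In the knockout of the β isoform, Cebpb was at -0.13 (95% interval -0.34 to 0.09, adjusted p = 0.693) and Cebpd at 0.19 (-0.12 to 0.49, adjusted p = 0.672). The difference between the effects on Cebpd was 0.54 (SE 0.21, adjusted p = 0.0616), and was called without total-line WT replicate 3, total ChREBP KO replicate 7 or 8, ChREBPβ-line WT replicate 8 or ChREBPβ KO replicate 1 or 5, at values from 0.58 to 0.61. It was also called with wash batch as a block (0.56, adjusted p = 0.0409), with the replicate block (0.54, adjusted p = 0.0474) and with 75th percentile scaling of the median intensity (0.58, adjusted p = 0.0367).

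Klf15 had a fold change close to that of Ppara, with a wider spread between arrays. The probe A_55_P2793729 (chr6:90424982-90425040, plus strand) ran from 9.87 through 10.21 to 10.91 in the total-line WT and from 11.21 through 11.74 to 13.05 in total ChREBP KO. Among WT mice of the ChREBPβ line it ran from 9.55 through 10.21 to 10.87 and in ChREBPβ KO from 9.87 through 10.35 to 11.71. The highest array of ChREBPβ KO was inside the total KO range, while the other 7 were below it. Klf15 was 2.83-fold higher in total ChREBP KO (log2 fold change 1.5, SE 0.23, adjusted p = 2.45e-06), at 1.36 to 1.79 within wash batches and 1.53 with the muscle and liver means as covariates. In ChREBPβ KO the difference was 0.28 (SE 0.23, 95% interval -0.18 to 0.75, adjusted p = 0.677) and ran from -0.70 to 0.85 within wash batches, and with the slide as a fixed block it was 0.61 (adjusted p = 0.397). The effects differed by -1.22 (SE 0.32, adjusted p = 0.00565), and by -1.04 to -1.40 when 1 array at a time was left out. Klf15 is induced by glucocorticoids. Of 12 other genes known to be so, 4 were higher and 0 lower in total ChREBP KO (median log2 fold change -0.10). The 4 were Ddit4 (1.04, SE 0.23), Zbtb16 (0.87, SE 0.34), Tsc22d3 (0.54, SE 0.11) and Fkbp5 (0.36, SE 0.11). Among all gene names 44.1% were called in that comparison, 23% higher and 21.1% lower. Whether glucocorticoids had a part in the Klf15 difference was not tested.

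The 2 WT groups came from different lines, and 4 of the 10 genes differed between them, where 38.9% of all gene names did: 1 was higher, against 24.8% of gene names, and 3 were lower, against 14.1%. This comparison shares the total-line WT arrays with that of total ChREBP KO. Cebpd was 3.70-fold lower in the ChREBPβ-line WT (log2 difference -1.89, SE 0.15, adjusted p = 3.53e-11), where it ran from 9.73 through 9.998 to 10.44, and the ChREBPβ KO group, from 9.72 through 10.06 to 10.71, was also below every array of the total line. The scanner software found the Cebpd spot on 5 of 8 ChREBPβ-line WT arrays, 7 of 8 ChREBPβ KO arrays and 8 of 8 arrays of each total-line group, and it was well above background on all 32. Of all gene names, 9.46% had separate ranges in this comparison. With the muscle and liver marker means as covariates the Cebpd difference was -1.91, and it lay between -2.25 and -1.44 within wash batches. The muscle marker means of the 2 lines did not overlap, so fits with these covariates cannot separate muscle content from line in this comparison. Cebpb was at -0.42 in that WT group (SE 0.10, adjusted p = 0.00184), at 15.01 through 15.30 to 15.81, with overlapping ranges. Ppard was at -0.15 (SE 0.05, adjusted p = 0.02), at -0.12 without total-line WT replicate 6 (adjusted p = 0.0585), at -0.13 with the processed signal (adjusted p = 0.0623), at -0.20 with the marker covariates (adjusted p = 0.126) and at 0.11 within wash batch 3. Nr1h3 was at 0.25, as given above, and at 0.27 with the covariates (adjusted p = 0.0795). Pparg was at 0.10 (SE 0.05, adjusted p = 0.122) and was called with the processed signal (0.15, adjusted p = 0.0364), 75th percentile scaling (0.15, adjusted p = 0.039) and wash batch as a block (0.12, adjusted p = 0.0379). Klf15 was at -0.16 (SE 0.23, adjusted p = 0.621) and Ppara at 0.11 (SE 0.09, adjusted p = 0.358). The brighter Rxra probe was at -0.16 (adjusted p = 0.0689), and was called without total-line WT replicate 4 or ChREBPβ-line WT replicate 5 (-0.19 in both). It was also called with the processed signal (adjusted p = 0.0389), with 75th percentile scaling (0.0395), with wash batch (0.0221), the replicate number (0.0478) or the slide as a fixed (0.0401) or random block (0.0472) and with array weights (0.0436), at -0.16 to -0.20, and it was at 0.03 with the covariates (adjusted p = 0.893). The dimmer Rxra probe was at -0.42 (SE 0.08, adjusted p = 5.02e-05). In the mean of the Rxra probes the difference was called at -0.29 (adjusted p = 1.85e-04).

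Other gene groups also differed between the WT groups. Of the 12 glucocorticoid-response genes, 11 were lower in the ChREBPβ-line WT and 0 higher, and of the 14 clock genes 9 were higher and 4 lower. All 12 skeletal muscle markers and all 8 macrophage markers were lower there too. The macrophage markers were not among the covariates above, and those covariates cannot separate muscle content from line. The part of either cell type in the Cebpd difference was therefore not tested. Across the 32 arrays, the genes most like Cebpd among 19201 named genes were Has1 (r = 0.972), Tnfaip6 (r = 0.962) and Il6 (r = 0.951). After subtraction of the group means the same 3 genes led, with Tnfaip6 at 0.818, Has1 at 0.815 and Il6 at 0.762. The 32 arrays share their group and line, so the first set of values also holds every difference between lines.

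**Figure D3:**
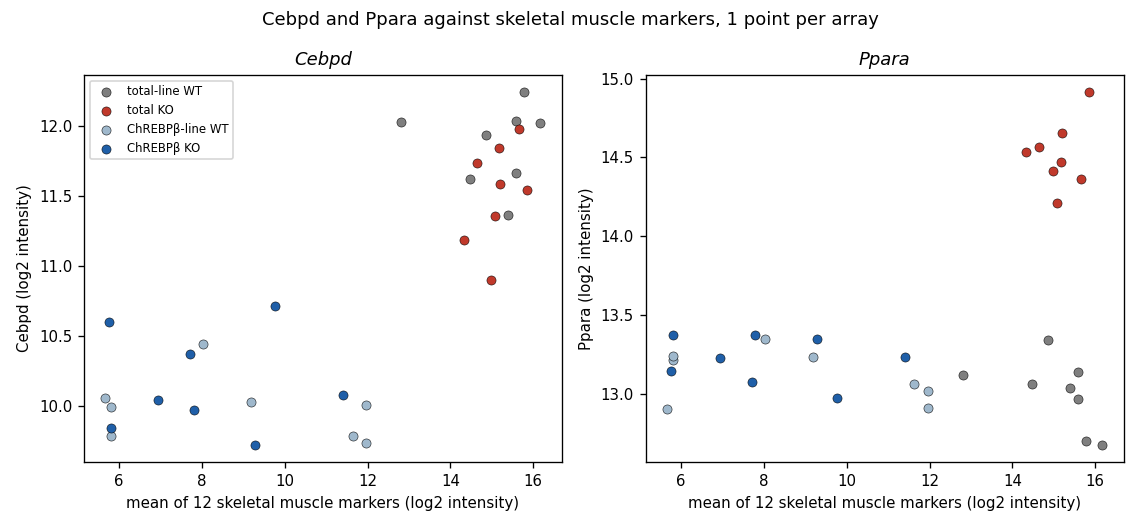
Log2 intensity of Cebpd (left) and Ppara (right) against the mean log2 intensity of 12 skeletal muscle markers, 1 point per array, in 4 groups of 8. Arrays of the 2 lines form separate clouds on the horizontal axis. Cebpd is at 10.90 or above in the total line and at 10.71 or below in the ChREBPβ line. Ppara is at 14.21 or above in total ChREBP KO and at 13.34 or below in its WT littermates. The muscle marker means run from 14.34 to 15.84 on those KO arrays and from 12.81 to 16.17 on those WT arrays. The part of muscle RNA in either gene was not tested.

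The other genes were compared in the same way, as a description over arrays that share groups. The genes named are the 3 highest of 19201, and how high the largest r would reach by chance was not tested. Ppara was most like Tesc (r = 0.959), Bckdhb (0.958) and Tmeff1 (0.955) over 32 arrays, and after subtraction of group means most like Heca (0.709), Pfkfb2 (0.692) and Trpm7 (0.685). Klf15 led with Ces1f (0.909), Pcsk6 (0.896) and Cerk (0.887), and after subtraction with Cd99l2 (0.836), Canx (0.831) and Mbd1 (0.824). Within groups Cebpb was most like Rsbn1 (0.805), the clock gene Clock (0.762) and Ccrn4l (0.75), Cebpa most like Elmod3 (0.832), Agbl3 (0.818) and 4833447I15Rik (0.818), and Rxra most like Sod1 (0.830), Atp6v1g1 (0.787) and Tex261 (0.770). Pparg (Pde7a 0.726, Micall1 0.708, Kdm5b 0.665), Ppard (Scaf1 0.705, Zfp771 0.646, Dusp3 0.635), Rxrg (8030462N17Rik 0.691, Smn1 0.666, Ddx18 0.664) and Nr1h3 (Lamtor1 0.747, Sec14l1 0.740, Dynll2 0.735) were below 0.75 within groups. Among pairs of the 10 genes, only Ppara with Cebpa (0.53) and Ppard with Nr1h3 (0.57) exceeded 0.5 in size within groups.

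Partners and coregulators of these factors were also counted by their brightest probes. Of 12 partners and paralogs, 3 were higher and 2 lower in total ChREBP KO, among them the Krüppel-like factors Klf9 (0.86, SE 0.08), Klf3 (0.78, SE 0.07), Klf2 (-0.64, SE 0.24) and Klf5 (-0.53, SE 0.11), and 1 was higher in ChREBPβ KO, Klf11 (0.52, SE 0.10). Of 15 coregulators, 6 were higher and 0 lower in total ChREBP KO. They included the PPAR coactivator gene Ppargc1a (1.18, SE 0.18), Tbl1xr1, which bridges to corepressor complexes (1.02, SE 0.07), the corepressor gene Nrip1 (0.66, SE 0.13) and the acetyltransferase gene Ep300 (0.52, SE 0.10). In ChREBPβ KO 0 of the 15 were called. Of 16 other adipogenic regulators, 3 were higher and 6 lower in total ChREBP KO, with Srebf1 at -1.04 (SE 0.10), the glucocorticoid receptor gene Nr3c1 at 0.76 (SE 0.14), Zfp467 at -0.66 (SE 0.08) and Ebf2 at 0.65 (SE 0.08). Ebf1 (0.54, SE 0.12), Ebf2 (0.46, SE 0.08) and Zfp467 (-0.32, SE 0.08) were called in ChREBPβ KO. These shares stand beside the 44.1% and 2.7% of all gene names.

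Known targets of these factors changed in both directions. The counts stand beside 44.1% of all gene names called in total ChREBP KO, 23% higher and 21.1% lower, and 2.7% called in ChREBPβ KO. Of 20 genes known to be driven by PPARγ with C/EBPα, 10 were higher and 4 lower in total ChREBP KO (median 0.16). The largest changes were in Pck1 (1.03, SE 0.16), the glucose transporter gene Slc2a4 (-0.98, SE 0.05), the lipase gene Lpl (0.91, SE 0.10) and the fatty acid transporter gene Slc27a1 (-0.86, SE 0.15). Slc27a1 (-0.82, SE 0.15) and the lipid droplet gene Plin1 (0.23, SE 0.05) were called in ChREBPβ KO. Of 25 known PPARα or PPARδ targets, 8 were higher and 4 lower in total ChREBP KO (median 0.004). The largest changes were in Fgf21 (-2.43, SE 0.28), Acot1 (-1.81, SE 0.18) and Plin2 (-1.43, SE 0.07), and the 8 that rose lay between 0.28 and 0.71. Acot1 (-0.67, SE 0.18) was the only 1 of the 25 called in ChREBPβ KO. Of 12 LXR targets, which include Nr1h3 itself, 1 was higher, Nr1h3, and 4 were lower in total ChREBP KO: Scd1 (-1.77, SE 0.14), Srebf1 (-1.04, SE 0.10), Lpcat3 (-0.57, SE 0.08) and Mylip (-0.47, SE 0.10). In ChREBPβ KO 0 of the 12 were called. Several of the genes that fell, such as Scd1, Fgf21 and Slc2a4, are also known targets of ChREBP. Why these genes fell was not tested. Of 14 clock genes, 9 were higher and 2 lower in total ChREBP KO, led by Hlf (1.86, SE 0.23), Dbp (1.64, SE 0.49), Per2 (1.54, SE 0.20) and Per3 (1.497, SE 0.32), and 0 were called in ChREBPβ KO.

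**Figure D4:**
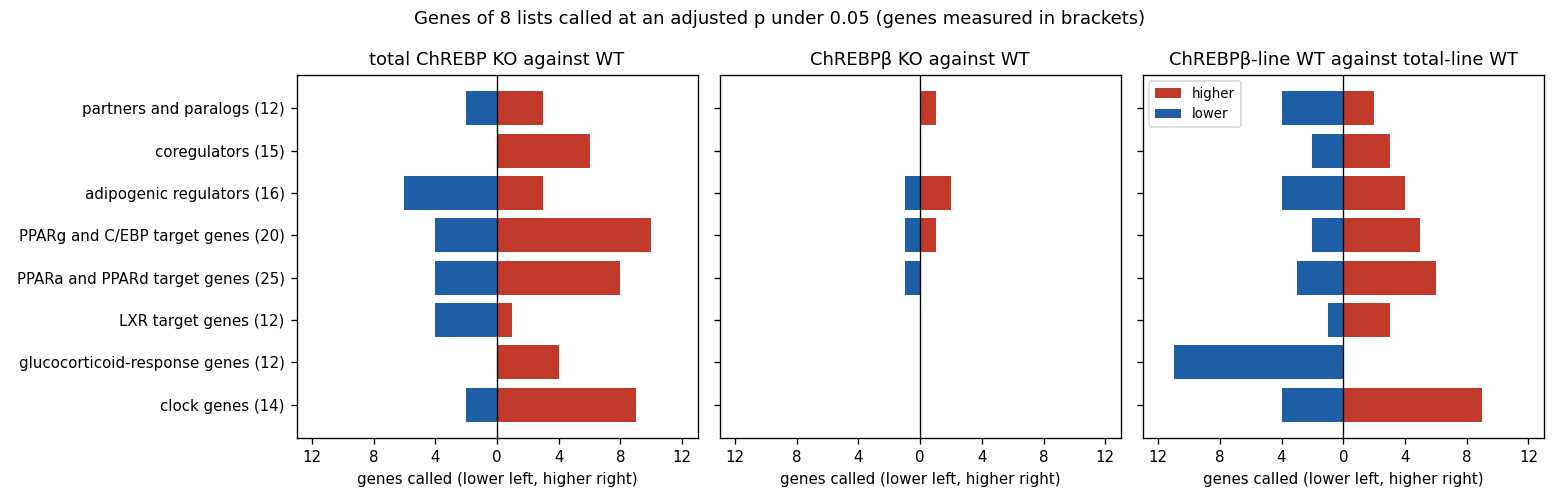
Genes of 8 lists called at a limma adjusted p under 0.05, counted to the right where higher and to the left where lower, in total ChREBP KO against WT, ChREBPβ KO against WT and the 2 WT groups against each other; the number measured is in brackets. Bars run both ways for most lists in total ChREBP KO, 1 list has more than 2 called genes in ChREBPβ KO, and 11 glucocorticoid-response genes are lower in the ChREBPβ-line WT. The comparisons on the left and right share the total-line WT arrays.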

How the data were processed

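RNA of brown adipose tissue was measured on 32 Agilent 1-colour arrays (4 groups of 8, from the labels). The authors deposited scanner files with the median pixel intensity of each spot, written by Agilent Feature Extraction 10.10.1.1 per the submitters' processing notes, and a table of log2 values, for which the methods give a spot filter, quantile normalization and 1 median value for repeated probes. Probe coordinates are mm9 per the file headers, and the place of a probe within its transcript was not annotated here.

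Spots were kept if found, positive and well above background on 26 of 32 arrays or on 6 arrays of 1 group, leaving 39985 of 59305 spots. After quantile normalization, log2 was taken and repeated spots of a probe gave their median, which gave values 0.0113 from the deposited log2 table on average. All 14 probes were well above background on all 32 arrays and all but that of Cebpd were found on all of them, and 0 spots were saturated. Signal over background takes the place of depth, with 64.4% to 71.1% of spots on an array passing that test.

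Limma 3.58.1 was run on every probe (R 4.3.3; lmFit, eBayes), over all arrays with 4 group means. Its two-sided p-values received a Benjamini-Hochberg adjustment over 37306 probes, and the threshold was 0.05. A gene was represented by its brightest probe and all probes of the 10 genes are described. From each list at most 4 called genes with the largest change per KO comparison were named, and marker lists by the range of their mean and their brightest gene. Alternatives were other signals, scalings, filters and thresholds, the deposited table, blocks, array weights, marker covariates, the mean of a gene's probes and leaving out each array. The genes and lists were chosen with earlier results of these data known. The script was tested on simulated data. Emr1 and Hbb-bs were not on the array under those names, and Cd79a had no kept probe. Some list genes are not reported here.

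Lists of lymphocyte, white adipose, endothelial, stromal progenitor and blood markers had 1, 1, 1, 1 and 0 genes higher and 0, 0, 2, 5 and 0 lower in total ChREBP KO, of 7, 6, 6, 6 and 4 measured, and 0 of 10 liver markers were called. Between the WT groups they had 3, 1, 5, 1 and 0 higher and 0, 3, 0, 4 and 2 lower, and 1 liver marker was higher. Of all gene names, 44.1% were called in total ChREBP KO and 38.9% between the WT groups.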

Additional observations from a re-analysis of the deposited data

Results flagged for a closer look

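In 9 of 56 groups of 8 arrays 1 array stood apart from the rest by a gap test at the 95% level, where chance gives about 1 in 20. Ppard was high on total-line WT replicate 6 (10.60, next 10.42) and low on ChREBPβ KO replicate 4 (10.28, next 10.43). Nr1h3 was also low on ChREBPβ KO replicate 4 (13.34, next 13.59). Cebpa was low on ChREBPβ-line WT replicate 5 (11.89, next 12.46), and Cebpd was high on ChREBPβ-line WT replicate 8 (10.44, next 10.06). Klf15 was high on total ChREBP KO replicate 7 (13.05, next 12.004) and Rxra on the same array (14.24, next 13.87). Rxrg was high on total ChREBP KO replicate 5 (12.41, next 12.20) and Klf15 on ChREBPβ KO replicate 2 (11.71, next 10.55).

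The KO effects differed between the lines, as ChREBPβ KO effect minus total KO effect in limma, for both probes of Ppara (-1.41 and -1.43), both probes of Nr1h3 (-0.40 and -0.33) and for Klf15 (-1.22).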

How the results depend on the processing

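Across the alternatives that set no minimum fold, 525 differences of single genes stayed on their side of the threshold, 10 lost their call and 21 gained one. In these, 0 called values changed sign. Ppara, Klf15, Nr1h3, Cebpa, Ppard and Rxrg kept their calls in total ChREBP KO under all alternatives that set no minimum fold. The number of the 10 genes called changed most with a required fold of 1.5, to 2 in total ChREBP KO, 0 in ChREBPβ KO and 1 between the WT groups. In ChREBPβ KO it was 1 with Agilent's processed signal and 0 with the slide as a fixed block. Between the WT groups it was 2 with marker covariates. Without 1 array at a time it ran from 7 to 8 in total ChREBP KO, from 2 to 2 in ChREBPβ KO, from 3 to 4 for the difference and from 3 to 5 between the WT groups. Within wash batch 3, with as few as 1 array in a group, Ppard between the WT groups was 0.11. Cebpd was not measured when spots had to be found, positive and well above background on all 32 arrays, as its spot was found on 28. The cause of these changes was not tested.

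Replicate numbers are shared between groups, but the labels do not say that they pair the samples. Deviations of same-numbered arrays correlated at -0.305 to 0.080 in the total line, with 0 of 8 pairs over 0.1. In the ChREBPβ line they correlated at -0.196 to 0.532, with 6 of 8 over 0.1. Whether the numbers pair samples there was not settled, and the main fit did not pair them. With the replicate block, 8 genes were called in total ChREBP KO, 2 in ChREBPβ KO, 4 for the difference and 5 between the WT groups. The number of arrays limits the precision.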
